A study of Rattus norvegicus with 6 samples.

Results

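The genes described here encode the synaptic vesicle and release machinery of nerve terminals. They were followed in rat hippocampus after permanent bilateral common carotid artery occlusion (BCCAo), which lowers blood flow to the forebrain. The data used here hold no measure of blood flow. The set holds 38 genes, chosen by their place in the vesicle cycle. All 38 were found on the array, on 47 of its 30367 probes, among 17507 named genes. All 38 were well above background on all 6 arrays and none was saturated, so no member was lost to a filter and every difference below was measured on both sides.

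The study measured pooled hippocampal RNA of male Wistar rats, 1 array per group. The occlusion groups were taken at day 21 (13 weeks old per the labels), day 35 (14 weeks), day 45 (15 weeks), day 55 (16 weeks) and day 70 (17 weeks) after both arteries were doubly tied with silk under 5% isoflurane, and the control group was 12 weeks old. These ages step by 1 week per group, unlike the days, and every sample description gives 12 weeks, so the ages are uncertain. Whether control rats had a sham operation, and how many rats each pool held, the sources used here do not give. With 1 array per group there are no replicates, so no p-value, standard error of a group or interval can be given, and every value describes 1 pool.

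A nerve terminal fills vesicles with transmitter, docks and primes them at the active zone, and fuses them with the membrane when calcium enters. Fusion is driven by SNARE proteins (synaptobrevin on the vesicle, syntaxin and SNAP-25 on the membrane), set off by synaptotagmin calcium sensors, and followed by SNARE disassembly and by endocytosis of the vesicle membrane. In hippocampus most of these messengers are made in the cell bodies of pyramidal and granule neurons, whose axons form the excitatory circuit of that structure.

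Levels are given as scaled intensity, in arbitrary units. The intensity of each probe was divided by the 75th percentile of its own array and put back on the scale of the control array. Each difference is on the log2 scale, a day less the control unless another pair is named. Counts use a level of at most 0.8 times the control, or as large a ratio the other way, which is 0.322 log2 units and is written 0.32 below. A printed value of 0.32 can lie just short of it, as Bsn does at day 21 (0.801 times the control). From the spread between spots of the same probe within each array, the SD of a difference of single spots was 0.096 log2 units (median over the 5 days). This holds nothing of the spread between labellings, hybridisations, slides or animals. Levels of different genes were read by different probes and are not ranked against each other.

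Between 74.5% (day 45) and 80.2% (control) of spots were well above background, and the 75th percentile used for scaling ran from 1242.9 (day 21) to 1504.4 (day 35) units. Days 21 and 35 were hybridised on slide 1 with the control, and days 45, 55 and 70 on slide 2, so for those 3 days the slide and the time after occlusion cannot be told apart. Most members are bright: when all named genes are ordered by brightness and cut into 3 equal bins, 27 of 38 lie in the top bin and the other 11 in the middle bin. Brighter genes differ less between arrays than dim ones, so shares are given below for all genes and for the top bin, called the bright genes.

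The clearest departure from the control was at day 21. There 35 of 38 members lay below the control, which is 92.1% against 60.5% of the 13911 genes tested and 62.3% of the bright genes. The median member was at -0.23, against -0.07 over all genes and -0.06 over the bright genes. At least 0.32 lower were 9 members, or 23.7% against 17.0% of all genes tested and 8.12% of the bright genes. Of the 27 bright members all 27 were below the control and 7 were at least 0.32 lower, which is 25.9%. The 9 were Doc2a, Dnm1, Napa, Syt7, Syn1, Syp, Rab3a, Stx1a and Nsf, and they come from 6 of the 8 roles in the set. One member was at least 0.32 higher, Sv2c, against 13.8% of all genes and 7.67% of the bright genes.

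At day 35 the members had come level with the control, with a median of -0.01 against -0.04 over all genes and 23 of 38 below (all genes 58.2%, bright genes 51.2%). Only 2 were at least 0.32 lower (all genes 13.2%, bright genes 3.32%), Unc13a at -0.42 and Sv2c at -0.33, and none was higher (all genes 4.71%, bright genes 1.93%). At day 45 the median was -0.11 (0.01 with median scaling, which also left 5 members at least 0.32 lower) and 24 of 38 were below (all genes 61.8%, bright genes 47.5%). At least 0.32 lower were 8 members, a share of 21.1% near the 23.6% of all genes, and 1 was higher (all genes 3.06%, bright genes 1.23%). Of the 27 bright members 4 were among the 8, or 14.8% against 4.55% of the bright genes.

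At day 55 the median was again -0.11 and 30 of 38 lay below the control, or 78.9% against 58.5% of all genes and 51.2% of the bright genes. With the mean of the other 4 occlusion arrays as baseline the day 55 median was 0.01 with 17 below. The sizes were small, with 4 members at least 0.32 lower (all genes 19.8%, bright genes 4.24%) and 1 higher (all genes 5.48%, bright genes 2.42%). At day 70 the median was -0.01 and 20 of 38 were below (all genes 57.6%, bright genes 40.9%). There 4 members were at least 0.32 lower (all genes 21.3%, bright genes 2.44%) and 1 was higher (all genes 3.88%, bright genes 1.75%). On both of these days the share of members at least 0.32 lower, 10.5%, was under that of all genes and over that of the bright genes. Of the 27 bright members 3 were at least 0.32 lower at day 55 (11.1%, against 4.24% of the bright genes). At day 70 there was 1 (3.7%, against 2.44%). All 5 comparisons use the same control array, so their signs are not independent of each other.

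**Figure D1:**
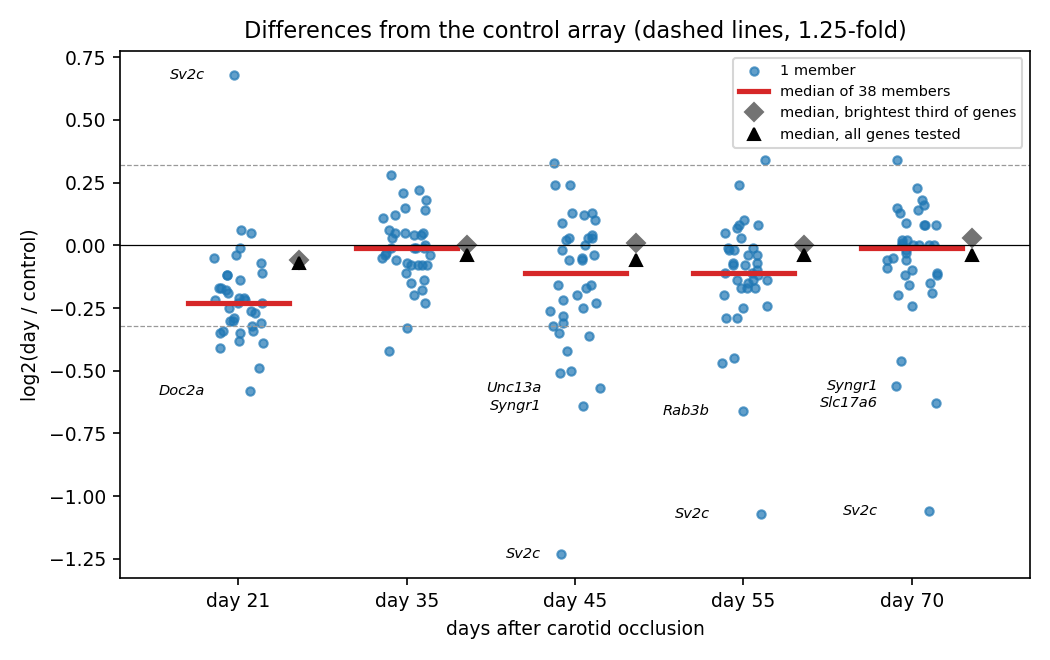
Log2 difference from the control (vertical axis) of each of the 38 members (points, spread sideways to be seen) at the 5 days after occlusion, with the member median (red bar), the median of all genes tested (triangle) and of the bright genes (diamond). The red bar sits at -0.23 at day 21, clear of both background medians, and Sv2c stands apart at every day except day 35.

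A comparison that needs no control gave a related picture. For each member the array with its lowest level was found. That was the day 21 array for 19 members (50.0%, against 31.8% of 12330 genes well above background on all arrays and 40.7% of the bright genes) and the day 45 array for 13 (34.2%, against 21.5% and 14.7%). The day 55 array was lowest for 5 (13.2%, against 13.0% of all genes) and the day 70 array for 1, Slc17a6 (2.63%, against 1325 of the 12330 genes and 3.93% of the bright genes). No member had its lowest level on the control array (all genes 9.57%) or on the day 35 array (all genes 13.3%). The share for day 21 exceeds that of the bright genes by less than the share for day 45 does.

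**Figure D2:**
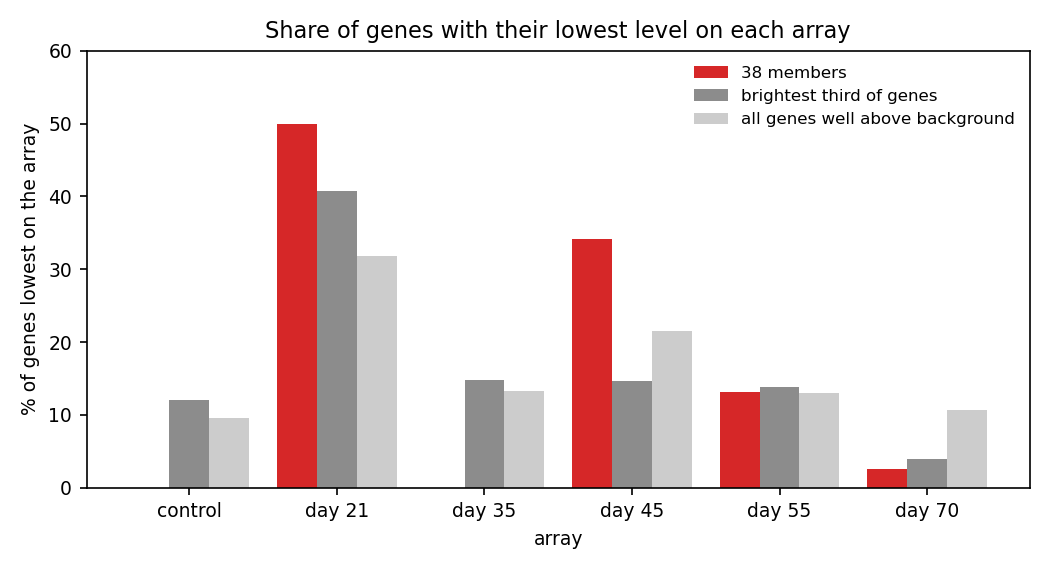
Percentage of genes (vertical axis) whose lowest level fell on each of the 6 arrays, for the 38 members (red), the bright genes (dark grey) and all genes well above background (light grey). Days 21 and 45 hold 50.0% and 34.2% of the members, and the control and day 35 arrays hold none.

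The members followed different courses, which the heat map of all differences shows by role. Within slide 1, day 21 against day 35, the median member was at -0.19, 33 of 38 were below (86.8%, against 53.8% of all genes and 59.4% of the bright genes). At least 0.32 lower were 12 (all genes 13.8%, bright genes 8.74%), and 1 was higher, Sv2c at 1.01 (all genes 17.5%, bright genes 9.18%). That comparison leaves the control array out and stays on one slide. Within slide 2, day 55 against day 45, the median was 0.08, with 6 members at least 0.32 lower (all genes 6.92%, bright genes 3.89%) and 7 higher (all genes 14.4%, bright genes 4.12%).

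**Figure D3:**
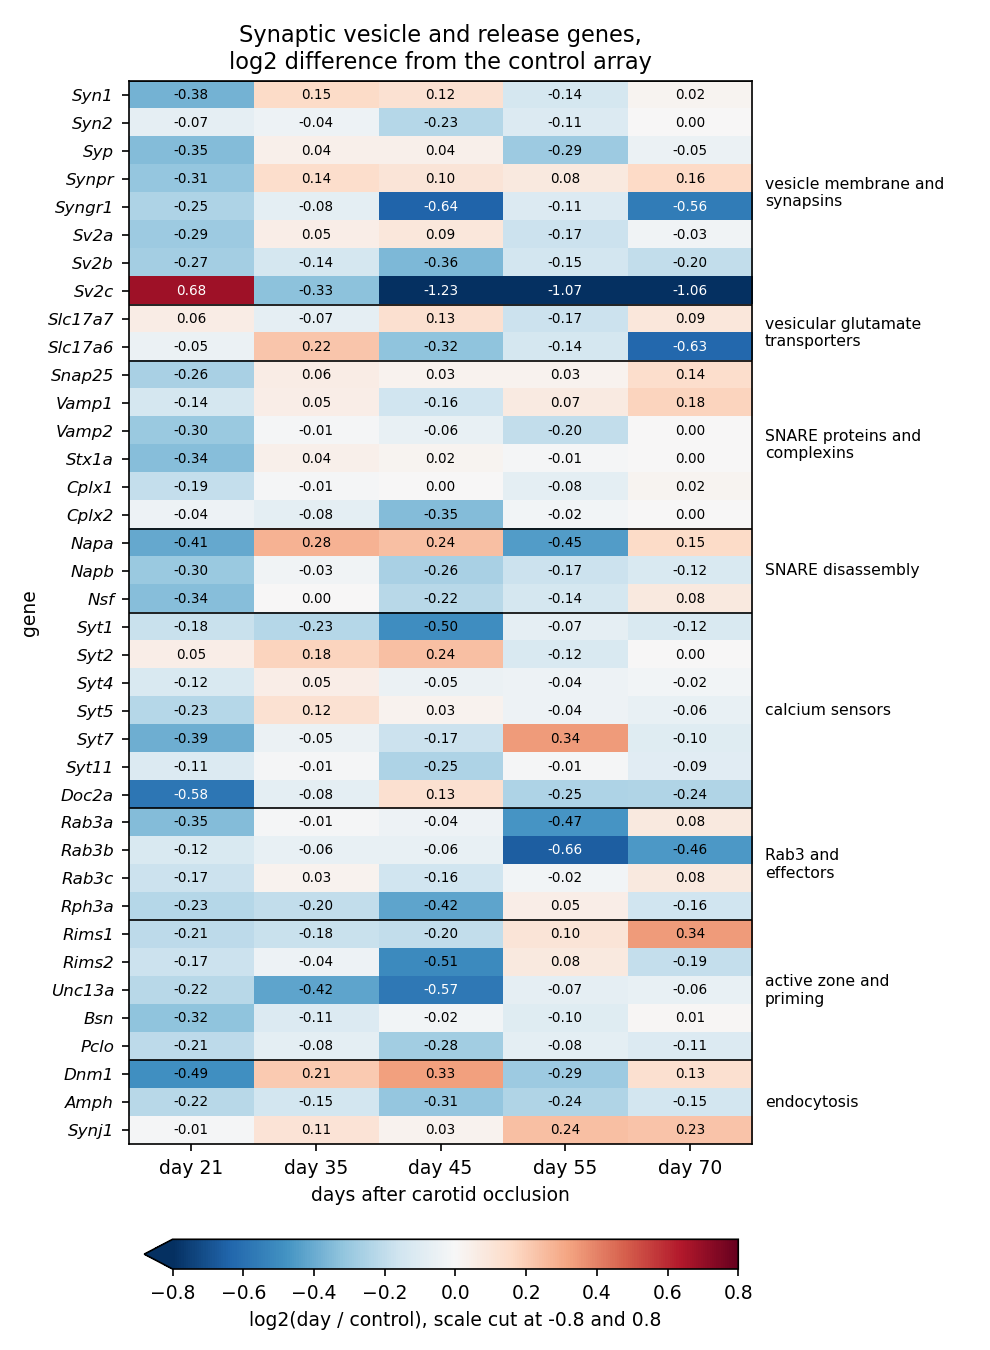
Log2 difference from the control for the 38 members (rows, grouped by role) at each day (columns), with the value printed in each cell and blue for lower, red for higher. The day 21 column is blue in 35 rows, and in the later columns lower values gather in rows such as Unc13a, Rims2 and Syngr1 at day 45 and Rab3b at day 55.

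Comparisons that share no array, day 21 with day 35 on slide 1 and day 55 with day 45 on slide 2, were set side by side after the values had been seen. In 16 of 38 members day 21 lay below day 35 and day 55 below day 45, or 42.1% against 26.7% of all genes and 33.4% of the bright genes. At 0.32 or more in both pairs there were 4 members, Napa, Doc2a, Rab3a and Dnm1 (10.5%, against 2.54% of all genes and 1.69% of the bright genes). Rims2, Syngr1, Syt7, Unc13a, Rph3a, Syt1 and Cplx2 lay the other way within slide 2, at 0.33 to 0.59 higher at day 55 than at day 45.

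**Figure D4:**
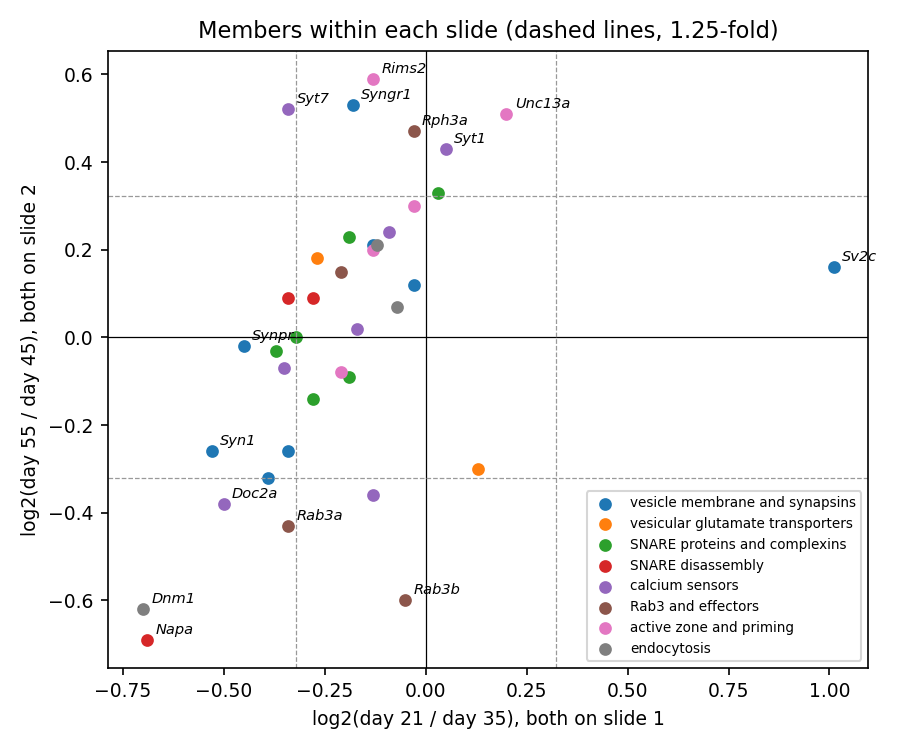
Each point is 1 of the 38 members, coloured by role, with its log2 difference of day 21 and day 35 across and of day 55 and day 45 upward; dashed lines mark 0.32 in either direction. Dnm1 and Napa lie farthest to the lower left, at -0.70 and -0.69 across, Rims2 and Syngr1 lie at the top, and Sv2c lies alone to the right.

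Synapsins tether vesicles to each other and to actin, and the vesicle membrane carries synaptophysin, synaptoporin, synaptogyrin and the SV2 glycoproteins. Of these 8 members 7 were below the control at day 21 (all genes 60.5%), with a median of -0.28. Syn1 read 1466 units on the control array, 1129 at day 21, 1629 at day 35, 1598 at day 45, 1333 at day 55 and 1485 at day 70. Its level was lowest at day 21 (-0.38), next lowest at day 55 (-0.14), and above the control at the other days. Syp, which encodes synaptophysin, read 10856 units on the control array, 8496 at day 21, 11170 at day 35, 11124 at day 45, 8903 at day 55 and 10493 at day 70. It too was lowest at days 21 and 55, at -0.35 and -0.29.

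Sv2a, the most widespread SV2 protein, had a like course at -0.29 and -0.17 on those days, and it was 0.05 and 0.09 above the control at days 35 and 45. Synpr, which is enriched in mossy fibre terminals of granule cells, was lower at day 21 only, at -0.31, and 0.08 to 0.16 higher at the later days. A second, dimmer Synpr probe gave -0.42 at day 21 and -0.03 to 0.17 at the later days. Syn2, Sv2b and Syngr1 had their lowest levels at day 45 instead, at -0.23, -0.36 and -0.64. Syngr1 was also at -0.56 at day 70.

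The probe of Syn1 is shown because Syn1 had the lowest day 21 difference of this group. It lies on the plus strand of rat build rn4 at chrX:12555888-12555947, and the files give it no exon or UTR annotation. It holds no stop codon in 1 reading frame.
Syn1 probe: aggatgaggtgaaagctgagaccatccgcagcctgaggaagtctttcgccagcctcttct

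Sv2c, an SV2 protein that in rodents is most abundant in basal ganglia and brainstem, was the member farthest from the control. It read 125 units on the control array, 201 at day 21, 99.9 at day 35, 53.5 at day 45, 59.7 at day 55 and 60.1 at day 70. The day 21 value is the highest and the 3 arrays of slide 2 are the lowest, within 0.17 of each other. Its differences were 0.68 at day 21, -0.33 at day 35 and -1.23, -1.07 and -1.06 at days 45, 55 and 70. These last 3 were the only members' differences of 2-fold or more. Sv2c lies in the middle bin of genes by brightness, and in that bin 1.53, 0.634, 5.71, 3.93 and 5.73% of genes differed by 2-fold or more in the lower direction at days 21, 35, 45, 55 and 70. Over all genes the shares were 1.88, 1.13, 5.78, 4.98 and 6.70% lower and 3.61, 0.453, 0.596, 0.652 and 0.663% higher. With another background correction (normexp) the 3 late differences were -0.73, -0.60 and -0.66. The striatal marker genes summed to 8762, 8588 and 8509 units on the 3 late arrays and 7649 at day 21, against 8444 in the control; the defining marker Drd1 was not well above background on any array. Red blood cell markers summed to 45177, 69202 and 50817 units on those late arrays and 90770 at day 21, against 79254 in the control, and all 5 lay below the control at each late day. The part of these markers in the Sv2c values was not tested.

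Vesicular glutamate transporters load glutamate into vesicles. Slc17a7, which encodes VGLUT1, the main form in hippocampal neurons, read 415 units on the control array, 434 at day 21, 396 at day 35, 455 at day 45, 370 at day 55 and 442 at day 70. No day was past 0.32. It was 1 of 3 members above the control at day 21, with Sv2c and Syt2.

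Slc17a6, which encodes VGLUT2, the main form in thalamic neurons, read 550 units on the control array, 531 at day 21, 639 at day 35, 441 at day 45, 498 at day 55 and 356 at day 70. Its probe is printed 10 times on each array, and the SE of each difference over spots is 0.026 to 0.034. The values of 0.22, -0.32, -0.14 and -0.63 at days 35, 45, 55 and 70 are well past this spread between spots, and the day 21 value of -0.05 is nearer to it. Days 45, 55 and 70 are on the other slide from the control, and that SE holds no spread between arrays or slides. The summed thalamic markers were 2205 units at day 35 and 1434 at day 70, against 1588 in the control, but 2265 at day 21, 1542 at day 45 and 2000 at day 55, when Slc17a6 was at -0.05, -0.32 and -0.14. Of 8 thalamic markers on the array, Gbx2 was not well above background on any array. The part of thalamic tissue in the Slc17a6 values was not tested.

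**Figure D5:**
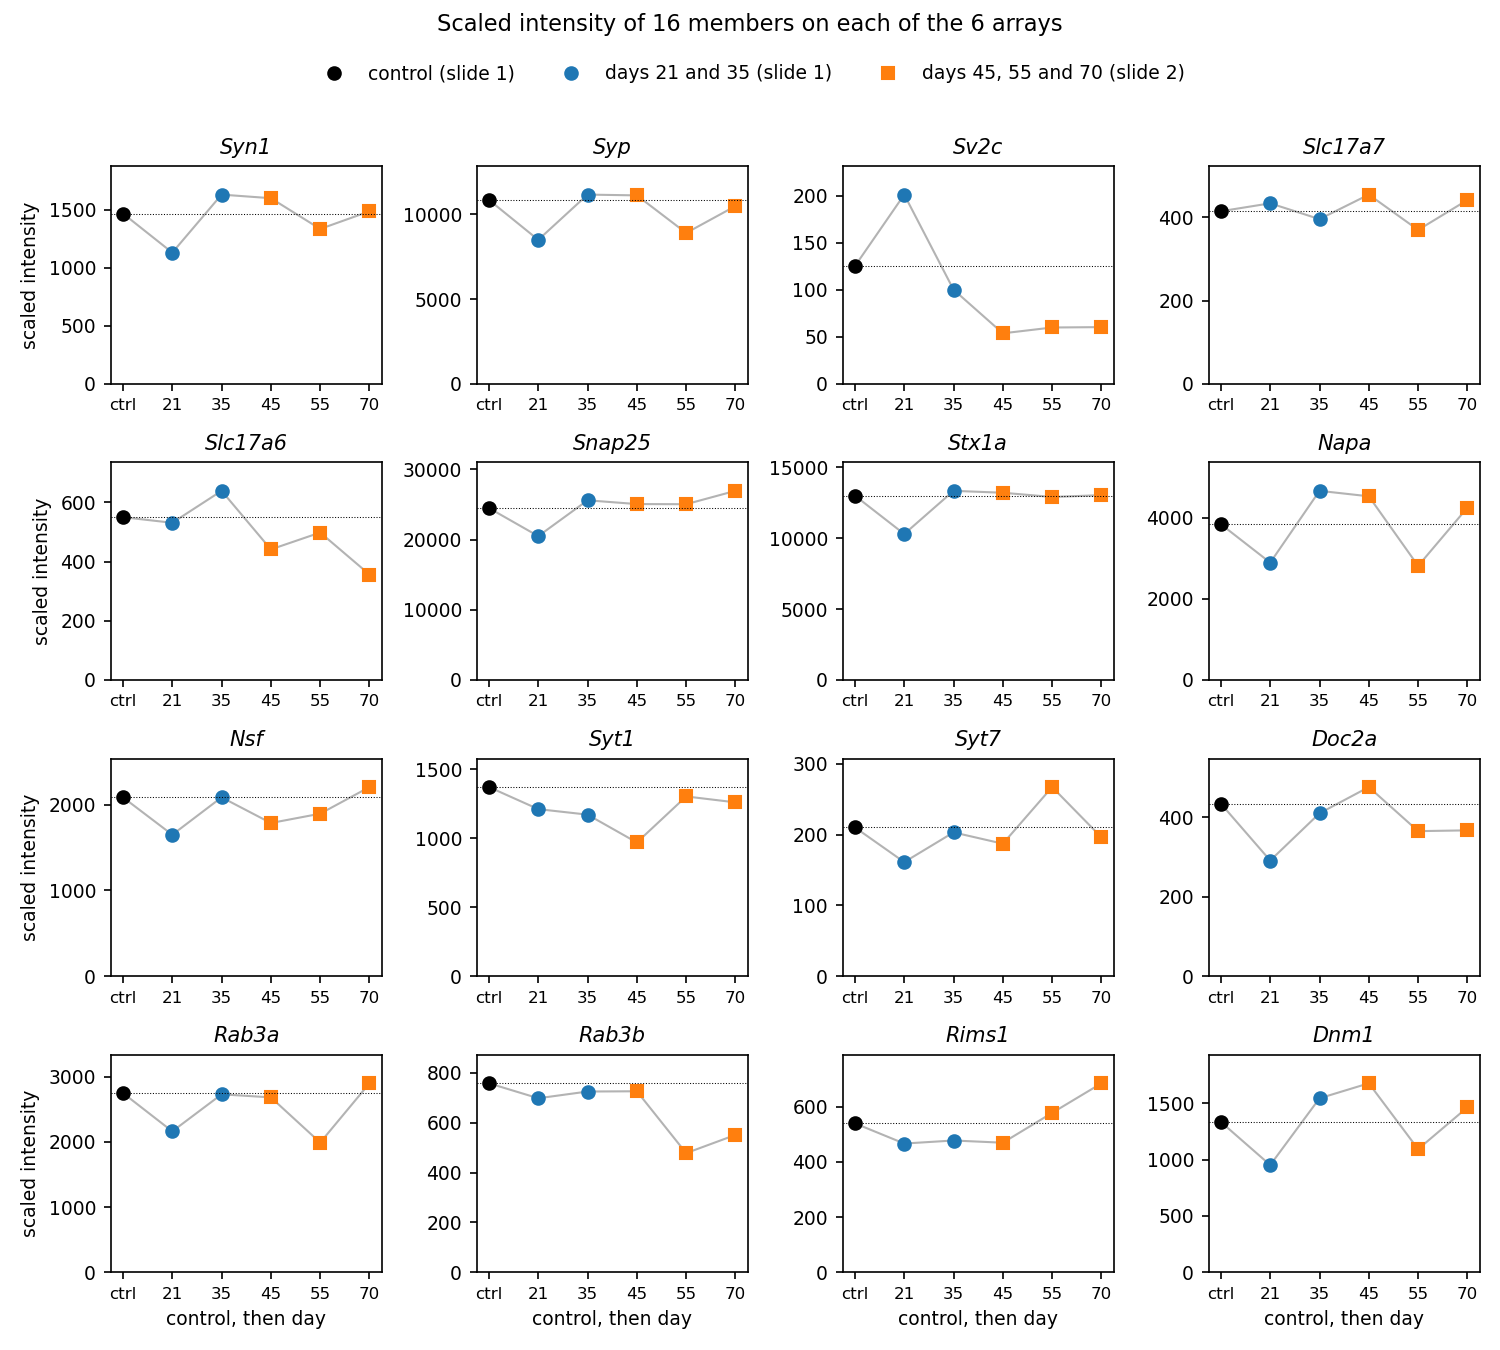
Scaled intensity (vertical axes, from 0, a scale of its own in each panel) of 16 members on the control array (black), days 21 and 35 on slide 1 (blue) and days 45, 55 and 70 on slide 2 (orange). Napa, Dnm1, Syp and Rab3a dip at days 21 and 55, Stx1a dips at day 21 alone, and Sv2c is high at day 21 and low on slide 2.

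The 6 SNARE and complexin members were all below the control at day 21 (all genes 60.5%). Their median there was -0.23, with Stx1a lowest at -0.34 and Cplx2 highest at -0.04. At day 70 none was below the control (all genes 57.6%, bright genes 40.9%), but Vamp2, Stx1a and Cplx2 were at 0.00 after rounding. With quantile normalization Stx1a was at -0.05 at day 70. Snap25, the membrane SNARE that contributes a pair of helices to the complex, is read by 10 spots. It had 24487 units on the control array, 20487 at day 21, 25596 at day 35, 25059 at day 45, 25040 at day 55 and 26945 at day 70. The day 21 difference of -0.26 has an SE over spots of 0.018. A second Snap25 probe on chr3:124893320-124893379 (rn4, plus strand) gave -0.41 at day 21, the same direction at a larger size.
Snap25 second probe: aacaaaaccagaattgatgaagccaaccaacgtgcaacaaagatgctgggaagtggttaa

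Stx1a, the plasma membrane syntaxin, read 13001 units on the control array, 10294 at day 21, 13343 at day 35, 13208 at day 45, 12910 at day 55 and 13039 at day 70. Its 4 later values lie within 0.04 of the control, which sets it apart in course from Syp and Syn1. Vamp2, the main synaptobrevin of forebrain, was at -0.30 at day 21 and -0.20 at day 55, and at most 0.06 from the control elsewhere. Complexins clamp and promote SNARE fusion: Cplx1 was at -0.19 at day 21, while Cplx2 was lowest at day 45, at -0.35.

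Vamp1, the synaptobrevin more common in spinal cord and brainstem, shows how far 2 probes of a gene can part. The probe read by 10 spots gave -0.16 at day 45 with an SE over spots of 0.035, whereas the second probe, on chr4:161337249-161337308 (rn4, plus strand), gave 0.42 there. At the other 4 days both had the same direction. The second probe read 609 units at day 45, against 455 in the control.
Vamp1 second probe: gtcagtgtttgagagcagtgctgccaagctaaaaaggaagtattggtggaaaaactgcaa

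After fusion the ATPase NSF and its adaptors, the SNAP proteins, pull SNARE complexes apart. All 3 members of this step were below the control at day 21 (median -0.34, all genes 60.5% below) and at day 55 (median -0.17, all genes 58.5% below). Napa, which encodes alpha-SNAP, read 3841 units on the control array, 2894 at day 21, 4666 at day 35, 4531 at day 45, 2814 at day 55 and 4251 at day 70. The values form 2 sets without overlap, days 21 and 55 low and the others at or above the control. Nsf read 2088 units on the control array, 1651 at day 21, 2088 at day 35, 1788 at day 45, 1897 at day 55 and 2208 at day 70. Napb, the neuronal beta-SNAP, was at -0.30 at day 21 and -0.26 at day 45.

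The probe of Napa is printed because Napa was past 0.32 within both slides. The files place it on the plus strand at chr1:76454248-76455265 (rn4), an interval longer than its 60 bases.
Napa probe: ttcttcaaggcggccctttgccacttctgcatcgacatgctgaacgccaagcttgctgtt

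Of the 7 members grouped here as calcium sensors 6 were below the control at day 21 (all genes 60.5%), with a median of -0.18. Doc2a, a high-affinity sensor of asynchronous and spontaneous release, had the lowest day 21 difference of any member, -0.58. It read 434 units on the control array, 291 at day 21, 410 at day 35, 476 at day 45, 365 at day 55 and 367 at day 70. The day 21 level was below all others, and days 55 and 70 were also below the control, at -0.25 and -0.24.

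Syt1, the fast sensor of synchronous release, read 1371 units on the control array, 1211 at day 21, 1171 at day 35, 969 at day 45, 1303 at day 55 and 1260 at day 70. It was lowest at day 45 (-0.50), and only that day passed 0.32. Syt7, a slow sensor tied to facilitation, read 210 units on the control array, 161 at day 21, 203 at day 35, 187 at day 45, 267 at day 55 and 196 at day 70. It was the lowest at day 21 (-0.39) and the highest at day 55 (0.34). Syt2, Syt4, Syt5 and Syt11 stayed within 0.32 of the control at all 5 days. By its brighter probe Syt4 moved least, between -0.12 and 0.05. A second, dimmer Syt4 probe gave -0.23 at day 45.
Syt7 probe, chr1:212931696-212931755, plus strand, rn4: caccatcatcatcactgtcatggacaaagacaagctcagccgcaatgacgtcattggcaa

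Rab3 proteins are the small GTPases of vesicles, and rabphilin (Rph3a) is one of their effectors. All 4 members were below the control at days 21 and 45 (all genes 60.5 and 61.8%). At day 45 Rab3a and Rab3b were at -0.04 and -0.06, near the median of -0.06 over all genes. Rab3a, the main form in forebrain, read 2748 units on the control array, 2161 at day 21, 2729 at day 35, 2682 at day 45, 1989 at day 55 and 2898 at day 70. Rab3b read 758 units on the control array, 698 at day 21, 725 at day 35, 726 at day 45, 478 at day 55 and 551 at day 70. Both were lowest at day 55, at -0.47 and -0.66, but only Rab3a was past 0.32 at day 21 and only Rab3b at day 70. Rab3c was within 0.32 throughout. Rph3a was lowest at day 45, at -0.42.

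The probes of Rab3a and Rab3b are shown because they are the most alike of any pair of members: laid side by side they overlap over 45 bases, of which 37 are identical (82.2%) and are given in capitals. The first lies on the minus strand at chr16:19190472-19190531 and the second on the plus strand at chr5:130283528-130283587 (rn4). Whether either probe also reads messenger of the other gene was not tested, so the like day 55 values of this pair are uncertain.
Rab3a probe: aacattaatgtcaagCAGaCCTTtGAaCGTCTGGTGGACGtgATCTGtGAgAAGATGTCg
Rab3b probe: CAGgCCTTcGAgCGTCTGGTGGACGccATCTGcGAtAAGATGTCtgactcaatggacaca

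RIM, Munc13, Bassoon and Piccolo build the active zone and prime vesicles there. All 5 members were below the control at days 21, 35 and 45 (all genes 60.5, 58.2 and 61.8%). Their medians there were -0.21, -0.11 and -0.28. Day 45 had the lowest of these medians, but Rims1 and, by its brighter probe, Bsn were lowest at day 21 (Bsn -0.32, against -0.02 at day 45). Day 45 is on slide 2, and its values are higher with median scaling, as for Rims1 (-0.08, against -0.20). Unc13a, which encodes the priming factor Munc13-1, was at -0.22, -0.42 and -0.57 on those days, and at -0.07 and -0.06 at days 55 and 70. Rims2 was at -0.51 at day 45 and within 0.32 at the other days. A second, dimmer Rims2 probe gave -0.14 at day 45.

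Rims1, the main RIM scaffold, read 539 units on the control array, 466 at day 21, 477 at day 35, 469 at day 45, 577 at day 55 and 684 at day 70. The 3 earlier days were below the control and the 2 later days above it, and day 70 was past 0.32 at 0.34. Bsn was at -0.32 at day 21. Its second, dimmer probe gave -0.54 at day 45 and -0.52 at day 70, where the brighter one gave -0.02 and 0.01. Pclo was between -0.28 and -0.08 at all days by its brighter probe. A second, dimmer Pclo probe gave -0.31 at days 21 and 45 and 0.00 at day 55.

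Dynamin, amphiphysin and synaptojanin retrieve vesicle membrane by clathrin-mediated endocytosis. Dnm1, the neuronal dynamin that cuts vesicles free, read 1333 units on the control array, 951 at day 21, 1543 at day 35, 1676 at day 45, 1092 at day 55 and 1463 at day 70. It was at -0.49 and -0.29 at days 21 and 55 and at 0.21 and 0.33 at days 35 and 45. Amph was below the control at all 5 days, between -0.31 and -0.15. Synj1 was at -0.01 at day 21, within the spread between spots, and at 0.24 and 0.23 at days 55 and 70. Its second probe gave -0.23 at day 21 and -0.03 and -0.01 at days 55 and 70.
Dnm1 probe, chr3:11439173-11439232, minus strand, rn4: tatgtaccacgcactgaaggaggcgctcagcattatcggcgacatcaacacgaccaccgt

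Of the 9 members with 2 probes, both probes gave the same direction in 9 at day 21, in 5 at day 35, in 6 at day 45, in 5 at day 55 and in 7 at day 70. Day 21 was thus the only day without a member whose probes disagreed in direction.

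Promoter sequence was looked at because members such as Syn1 and Napa had their lowest levels on the same days, 21 and 55. RefSeq promoters of the rat assembly GRCr8, 300 bases each around the start of the gene, matched 32 of the 38 members by symbol. Letters were searched on both strands, and a match describes sequence and not a bound site. The cAMP response element TGACGTCA stood in 3 of 32 (9.38%, against 1.91% of 27457 promoters), those of Syn1, Vamp1 and Napa. Vamp1 did not have that course: it was lowest at day 45 (-0.16) and at 0.07 at day 55. Syp, Rab3a and Dnm1 were also lowest at days 21 and 55, and their promoters held no full element. The part of this element in the course was not tested. The GC box GGGCGG stood in 22 (68.8%, against 34.9%) and the EGR1 motif GCGGGGGCG in 7 (21.9%, against 2.78%), which are Syn1, Syn2, Syp, Vamp2, Cplx1, Nsf and Syt1. The TATA box TATAAA stood in none (all promoters 14.3%), and the CCAAT box CCAAT in 10 (31.2%, against 37.7%). Where a GC box overlaps the edge of an EGR1 match, letters can be shared. The left part TTCAGCACC of RE1, the site of the neuronal repressor REST, stood in 1 (3.12%, Unc13a, against 0.379%), and the right part of RE1 in 2 (6.25%, Napb and Pclo, against 0.484%). Member promoters had a median GC content of 64.0%, against 52.3% over all, and GC-rich letters are more frequent in GC-rich sequence.
Syn1 promoter, chrX:3725495-3725794, plus strand, GRCr8, TGACGTCA in capitals: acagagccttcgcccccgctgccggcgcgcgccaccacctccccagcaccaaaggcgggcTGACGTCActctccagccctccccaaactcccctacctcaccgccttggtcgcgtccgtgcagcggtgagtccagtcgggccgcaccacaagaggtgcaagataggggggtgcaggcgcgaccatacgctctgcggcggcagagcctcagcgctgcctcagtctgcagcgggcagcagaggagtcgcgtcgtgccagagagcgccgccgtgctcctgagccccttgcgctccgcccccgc
Napa promoter, chr1:85915185-85915484, plus strand, GRCr8, TGACGTCA in capitals: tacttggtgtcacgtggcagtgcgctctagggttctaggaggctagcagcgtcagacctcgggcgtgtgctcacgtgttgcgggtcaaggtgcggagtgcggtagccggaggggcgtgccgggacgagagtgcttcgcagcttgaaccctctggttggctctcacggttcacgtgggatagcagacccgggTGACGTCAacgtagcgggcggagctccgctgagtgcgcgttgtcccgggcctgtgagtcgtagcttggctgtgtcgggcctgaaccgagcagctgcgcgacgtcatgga

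The rest of the pathway was read from 3 further lists of genes that are not members. Of 58 other release genes 56 were on the array and 55 had a difference at day 21. Of these 46 were below the control and 16 were at least 0.32 lower, with 4 higher and a median of -0.24, close to that of the members. Over all genes 60.5% were below, 17.0% lower and 13.8% higher on that day, with a median of -0.07. At days 35, 45, 55 and 70 the medians were -0.01, -0.08, -0.04 and -0.09. Slc18a2, the vesicular monoamine transporter, was at -0.94 and Syt9 at 1.49 at day 21. Later 2-fold differences were those of Cplx3 (-1.29, -1.42 and -1.45 at days 45, 55 and 70), of Slc18a2 (-1.20 at day 45) and of Syn3 (a bound of -1.06 at day 45).

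The 15 subunits and partners of the vacuolar proton pump, which acidifies vesicles and so powers transmitter uptake, were 13 of 15 below the control at day 21 (median -0.23), 2 of them at least 0.32 lower, Atp6v0d1 at -0.35 and Atp6v1b2 at -0.34 (all genes 60.5% below and 17.0% lower). At day 35 only 1 of 15 was below (median 0.09), at day 45 there were 5 (median 0.08), at day 55 there were 11 (median -0.07) and at day 70 there was 1 (median 0.06). The day 55 median is near that of all genes, -0.04, of which 58.5% were below. The 23 other genes of vesicle endocytosis had a median of -0.10 at day 21 over 22 measured, with 15 below. Ston1, an adaptor of clathrin coats, stood apart at 1.34 at day 21 and -2.06, -1.51 and -1.94 at days 45, 55 and 70.

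Cell type markers also differed from the control at day 21. In bulk tissue, fewer cells of a type and less RNA per cell cannot be told apart. Summed microglia markers were 106371 units at day 21, against 38430 in the control, and all 14 were above it (median 1.65). They ranged from 36328 to 42338 at the 4 other days. The median of the general neuron markers was -0.18 at day 21, with 15 of 16 below, and that of the pyramidal cell markers was -0.28, with 9 of 10 below. Pyramidal markers summed to 46811 units at day 21, against 54980 in the control, and the 16 general neuron markers that were saturated on no array to 121274, against 139121. Granule cell markers summed to 3037 units, against 3668, and the 8 interneuron markers with a value on all arrays and no saturation to 15639, against 16200. Astrocyte markers summed to 133347 units at day 21, against 106871, 10 oligodendrocyte markers, without the saturated Mbp, to 67217, against 55477, and meningeal markers to 13083, against 5598. Endothelial markers summed to 5926 units, against 6743, and red blood cell markers to 90770, against 79254.

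Choroid plexus markers were high on 3 arrays, at 71659, 37759 and 61388 units at days 21, 35 and 70, against 6562 in the control, and near it at days 45 and 55 (6284 and 6178). Without 1 gene that was saturated on at least 1 array, the other 9 summed to 5182, 3800 and 4496 units at days 21, 35 and 70, against 2777 in the control. Of the hippocampal markers, 10 of 11 pyramidal ones had a difference at day 21 (Iyd was not well above background on any array). The Spink8 difference among them is a bound. All 8 granule markers on the array had a difference at day 21, with 6 below the control and 2 above. The part of other cell types in the lower levels of the members at day 21 was not tested. At day 21 the median was -0.23 for the members and -0.18, -0.28, -0.31 and -0.09 for general neuron, pyramidal, granule and interneuron markers. That of the endothelial markers was -0.29.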

How the data were processed

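Total hippocampal RNA was isolated, pooled and linearly amplified, per the labels' protocols. The labels name Cy5, whereas the files hold 1 channel, the green one. The authors deposited 1 scanner file per array, read with Feature Extraction 10.7.3.1 per the file headers, in which intensity is the background-subtracted processed signal of each spot, with no scaling between arrays. Their deposited value table (41507 rows, intensity, medians of 298.0) ranks spots as the median signal minus background does and served as an alternative.

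Here spots marked as outliers were left out (346 to 470 per array), log2 intensity was centred on the 75th percentile of each array over 42877 non-control spots, and spots of a probe were averaged. Probes were named through RefSeq accessions (17328), symbols (2632) and synonyms (717); 187 kept the name in the file and 9503 stayed unnamed. A gene is its brightest probe. A difference was kept if the probe passed the scanner flag for signal above background on either array and was not saturated on both. No test across genes was possible with 1 array per group. Alternatives were normexp (limma 3.58.1, offset 50), quantile and median scaling, a percentile over detected probes, the authors' values, the mean of all probes, a filter on dim genes, saturated genes kept, and another baseline.

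The members, lists and sizes were chosen with earlier results of these data known. Values on each array are given for members at least 1.25-fold from the control at day 21 or 2-fold at any day and for the first member of each role; Slc17a6 and Rab3b were added after their values were seen. Of other lists, at most 3 genes per day by size and those past 2-fold are named, except 1 that is not reported here. Coordinates of probes are those of the files (rn4).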

Additional observations from a re-analysis of the deposited data

Results flagged for a closer look

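The following 3 members were at least 0.32 log2 units lower than the control at one day and at least 0.32 higher at another, and the difference between those days was not tested. Sv2c was at -1.23 at day 45 and 0.68 at day 21. Syt7 was at -0.39 at day 21 and 0.34 at day 55. Dnm1 was at -0.49 at day 21 and 0.33 at day 45. Sv2c and Syt7 are both in the middle bin of genes by brightness, and the days compared lie on different slides for all 3.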

How the results depend on the processing

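The day 21 median stayed between -0.25 and -0.16 and the number of members below the baseline between 29 and 35 under all 9 alternatives. These ranges include the alternative whose baseline is the mean of the other 4 occlusion arrays and not the control. The day 21 array held the lowest level of 16 to 24 members under the 8 alternatives that keep the arrays apart. The later days depended more on scaling. With median scaling the medians were 0.01 at day 45 and 0.09 at day 70, 12 and 13 members lay below the control at days 35 and 70, 1 was lower and 1 higher by 0.32 at day 35, 5 lower and 3 higher at day 45, and 2 higher at each of days 55 and 70. With the mean of the other 4 occlusion arrays as baseline the medians were 0.11, 0.01 and 0.09 at days 35, 55 and 70, with 7, 17 and 9 members below; 0 were lower and 3 higher by 0.32 at day 35, 5 lower and 3 higher at day 45, 2 lower at day 70, and Sv2c reversed to 0.34 at day 35. With quantile normalization 1 was lower and 1 higher at day 35 and 2 higher at day 45. With normexp 1 was lower at day 35 and 0 higher at days 45 and 55. With a percentile over detected probes 0 were higher at day 70. In the authors' values 0 were lower at day 35 and 2 higher at day 55. The cause was not tested. No paired analysis was possible because each group has 1 array, which also allows no array to be left out and no slide to be fitted as a block; within-slide values stand in the report. Sv2c had 53.5 units at day 45, and its late differences were -0.73 to -0.60 with normexp and -0.71 to -0.58 in the authors' values; the part of low signal was not tested.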

Other observations

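Probe composition moved with some differences. Across the 38 members, whose probes hold 35.0 to 55.0% GC (median 45.0%), the rank correlation of GC content with the difference was -0.05, 0.07, 0.23, -0.43 and -0.17 at days 21, 35, 45, 55 and 70. Across 20314 probes well above background on all arrays it was -0.11, -0.07, -0.17, -0.33 and -0.25. These are descriptions over probes of the same 6 arrays, which share the control. At day 55 the median difference of probes with at most 40% GC was 0.03, and that of probes with at least 55% GC was -0.20. Its part in the low day 55 values of Napa, Rab3a and Dnm1 was not tested.

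A second probe of Cplx1 had the course of Napa and Dnm1 although the brighter probe did not. It read 1485 units on the control array, 1138 at day 21, 1687 at day 35, 1754 at day 45, 1208 at day 55 and 1574 at day 70. Svop and Ppfia4, release genes outside the member set, were low at days 21 and 55 too. Svop was at -0.57 and -0.39, and Ppfia4 at -0.59 and -0.50, with both within 0.12 of the control at days 35, 45 and 70. Of the general neuron markers Thy1 was at -0.45 at both days. These genes were named after their values were seen, and the lists of Svop, Ppfia4 and Thy1 were near the control at day 55. The median there was -0.04 for the other release genes, with 22 of 56 above the control. It was also -0.04 for the general neuron markers, with 6 of 16 above, and over all genes.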
